A study of Arabidopsis thaliana with 19 samples.

Results

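Shoot tissue of Arabidopsis thaliana seedlings that overexpressed the transcription factor ATR1 was compared with that of the wild type seedlings grown in the same experiment. The comparison took every array titled for ATR1 overexpression (ATR1_OE, 2 arrays) and every array titled as the wild type of the ATR1 and MYB51 experiment (2 arrays), so 4 of the 19 arrays of the series. Of the 22746 probe sets of the Affymetrix ATH1 array that are not controls, all were taken in, and 15630 passed a filter on low signal and were tested. Seedlings of every group were 14 days old, were raised in short days (10 h of light, 14 h of dark) at 20 °C, and were sampled after cutting off cotyledons and hypocotyls, with 15 µg of total RNA per sample. The labels give neither the promoter of the ATR1 construct nor the number of lines behind it, and name no accession for the wild type. They do not say whether replicates came from separate cultures. The p-values thus reflect only how far arrays differ, and some of that spread may be technical. The spread within groups was estimated from all 19 arrays of the series in 9 groups, not from these 4 alone. The probe set of ATR1 is not named in the annotation used here, so the level of ATR1 itself was not analysed here and the overexpression rests on the labels. Because the tissue was harvested in bulk, fewer cells of a type and less RNA per cell cannot be told apart in any of the values below.

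ATR1 is a MYB transcription factor known as a regulator of indole glucosinolates. Glucosinolates are sulfur-rich defence compounds of the cabbage family: indole glucosinolates are built on tryptophan, aliphatic ones on methionine lengthened at its side chain. Their synthesis draws on the shikimate pathway, which feeds tryptophan, and on sulfate assimilation, which supplies the sulfur, while enzymes called myrosinases split the finished compounds when tissue is damaged. The aldoxime made from tryptophan on this route is also known as a precursor of the hormone auxin.

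Signals are MAS5 intensities, each array scaled by the authors to the same trimmed mean. Their median lay at 79.4 and 78.4 on the ATR1_OE arrays and at 97.8 and 89.2 on the wild type arrays. Values under an array's 20th percentile were raised to that floor before log2 was taken. The floor lay at 13.7 and 12.5 on the ATR1_OE arrays and at 19.1 and 15.2 on the wild type arrays. A probe set at the floor on all 4 arrays thus has a negative log2 change from the floors alone. Log2 signals of the ATR1_OE replicates correlated across probe sets with r = 0.976 and those of the wild type replicates with r = 0.968, against 0.936 to 0.946 between the groups. Of 12 leaf and shoot markers only RCA, the Rubisco activase gene, is named on the array, and its signal was 13671 and 11655 in ATR1_OE against 10287 and 11539 in wild type (limma adjusted p = 0.31).

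The change in ATR1_OE was broad. limma called 2369 of 15630 probe sets at an adjusted p under 0.05, or 15.2%, of which 866 (5.54% of those tested) were higher and 1503 (9.62%) lower than in wild type. These shares are the background for the counts of called genes in every list below that is compared with this wild type. Shares for the other contrasts are given with those contrasts. No called probe set had overlapping arrays between the groups, but neither did 59.5% of all probe sets tested. At least 2-fold changes numbered 640 upward and 1064 downward, and at least 8-fold changes 59 upward and 12 downward, so the largest changes were mostly rises although most calls were falls. Of probe sets assigned to 1 gene, 1216 of 8578 (14.2%) were called, 385 higher and 831 lower. The median of all probe sets tested was a log2 change of -0.13, and it was -0.01 with quantile normalization. That scaling gave 1026 higher and 1122 lower calls in place of 866 and 1503. The split between rises and falls thus moved with the scaling. Leaving out 1 array at a time gave 791 calls (without wild type replicate 2), 1072 (without ATR1_OE replicate 2), 1292 (without ATR1_OE replicate 1) and 1385 (without wild type replicate 1).

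**Figure D1:**
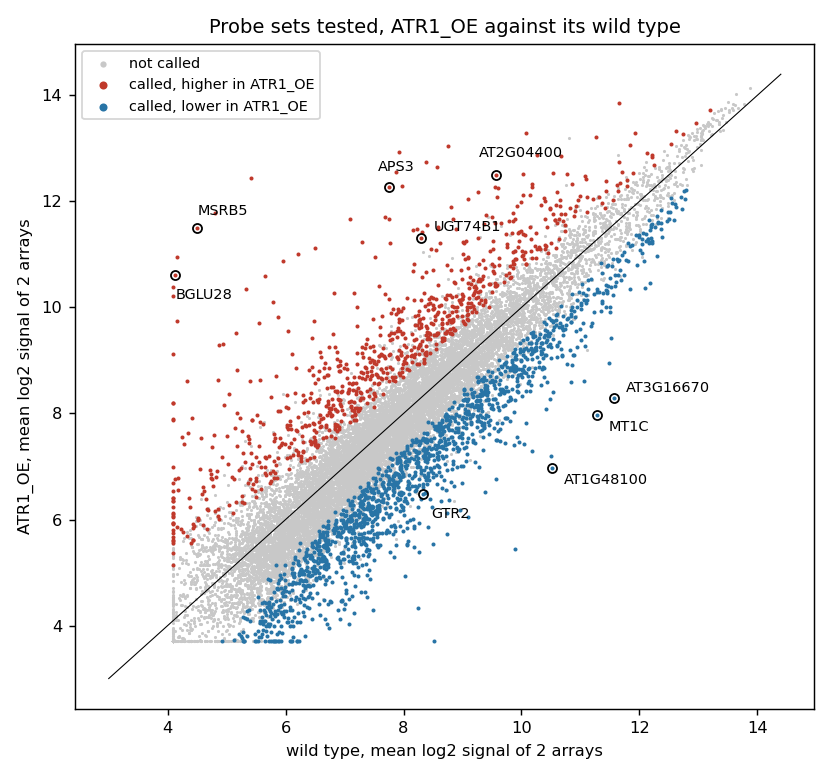
Mean log2 signal of the 2 ATR1_OE arrays against the mean of the 2 wild type arrays for the 15630 probe sets tested, with the 866 higher calls in red, the 1503 lower calls in blue and the line of equal signal in black. MSRB5, BGLU28 and APS3 lie farthest above the line among the genes marked, and MT1C, AT1G48100 and AT3G16670 below it.

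Of 40 genes listed for tryptophan supply, the glucosinolate core and the indole branch 4 could be tested, and AT2G04400, AT5G66120 and UGT74B1 rose. Of the shikimate and tryptophan list 3 of 23 genes could be tested, 2 of them rose and none fell, with a median log2 change of 1.64. AT2G04400, the locus listed for indole-3-glycerol phosphate synthase of tryptophan synthesis, had signals of 6705 and 4946 in ATR1_OE and 798 and 726 in wild type. The arrays lay far apart, and the rise was 7.57-fold (log2 2.92 ± 0.24, SE; limma adjusted p = 3.67e-06). AT5G66120, listed for dehydroquinate synthase of the shikimate pathway, gave 2513 and 2859 against 900 and 818, a log2 change of 1.64 ± 0.19 (SE; limma adjusted p = 8.01e-05). AT1G22410, listed for the DAHP synthase that opens that pathway, gave 4554 and 3012 against 2342 and 1591. Its arrays did not overlap either, but its log2 change of 0.94 ± 0.34 (SE) was not called (limma adjusted p = 0.072). Against the wild types of the other experiments (5 arrays), a control chosen after seeing the data, it was (log2 1.16; limma adjusted p = 0.0142).

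Of the 17 genes listed for the glucosinolate core and the indole branch only UGT74B1 is named on the array. It encodes the glucosyltransferase that attaches glucose to the core structure, and it rose 7.98-fold. Its signals were 2428 and 2624 in ATR1_OE and 498 and 201 in wild type. The ATR1_OE arrays agreed closely while the wild type arrays differed by more than 2-fold, and the log2 change was 3.0 ± 0.40 (SE; limma adjusted p = 0.000265). The calls of AT2G04400, AT5G66120 and UGT74B1 held without any 1 of the 4 arrays, with adjusted p of at most 0.000242, 0.0028 and 0.00591 in turn. The cytochrome P450 genes and the other enzymes of the indole branch were not analysed here.

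Sulfate assimilation and sulfur-starvation genes rose with them. Of 32 listed genes 5 could be tested, 4 rose and none fell, with a median log2 change of 2.40 against -0.13 for all probe sets. BGLU28, a beta-glucosidase known to be induced by sulfur starvation, had signals of 2129 and 1144 in ATR1_OE against 8.95 and 16 in wild type, where 1 array lay at the floor. The log2 change was 6.48 ± 0.33 (SE; limma adjusted p = 2.67e-08), the lowest adjusted p of the named genes. APS3, an ATP sulfurylase that activates sulfate, gave 5821 and 4217 against 310 and 152 and rose 22.8-fold (log2 4.51 ± 0.34, SE; limma adjusted p = 1.68e-06). The related APS4 gave 139 and 118 against 131 and 133, so the arrays overlapped, and its log2 change was -0.04 (limma adjusted p = 0.923). SIR, the sulfite reductase that makes sulfide, gave 4019 and 3455 against 1457 and 1426 and rose 2.59-fold (limma adjusted p = 0.00108). AT1G04770, listed for a protein of the sulfur-starvation response, gave 889 and 1465 against 192 and 244, a log2 change of 2.40 ± 0.52 (SE; limma adjusted p = 0.00685). The rises of BGLU28, APS3 and SIR were called without any 1 array, whereas AT1G04770 lost its call without ATR1_OE replicate 2 (adjusted p = 0.0725).

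Genes of methionine metabolism moved both ways: of 8 tested, 3 rose and 2 fell, with a median log2 change of 0.22. MSRB5, a methionine sulfoxide reductase that repairs oxidised methionine, had the highest fitted rise among named genes that were not at the floor on both wild type arrays, with signals of 3647 and 2312 in ATR1_OE against 33.6 and 11.2 in wild type, 1 of these at the floor. Its log2 change was 7.0 ± 0.54 (SE; limma adjusted p = 1.7e-06). Its relatives went the other way or showed no difference. MSRB9 gave 11.9 and 14.1 against 55.6 and 117 and fell by 2.54 on the log2 scale (limma adjusted p = 0.0104). MSRB6 gave 198 and 157 against 1903 and 526 and fell by 2.50 (limma adjusted p = 0.0427). MSRB3 had 124 and 115 against 109 and 118, arrays that overlap, and a log2 change of 0.08. CBL, the cystathionine beta-lyase of methionine synthesis, rose from 876 and 1099 to 1897 and 2659 (log2 1.19 ± 0.26, SE; limma adjusted p = 0.00714). MGL, the methionine gamma-lyase that breaks methionine down, rose from 151 and 85.6 to 337 and 350 (log2 1.59 ± 0.42, SE; limma adjusted p = 0.0196). The methyltransferases MMT (log2 0.37) and HMT-1 (log2 -0.04) were not called. CBL lost its call without ATR1_OE replicate 2 or wild type replicate 1 (adjusted p of at most 0.0836), MGL and MSRB9 without any array but wild type replicate 1 (at most 0.173 and 0.114), and MSRB6 without any array but wild type replicate 2 (at most 0.303).

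**Figure D2:**
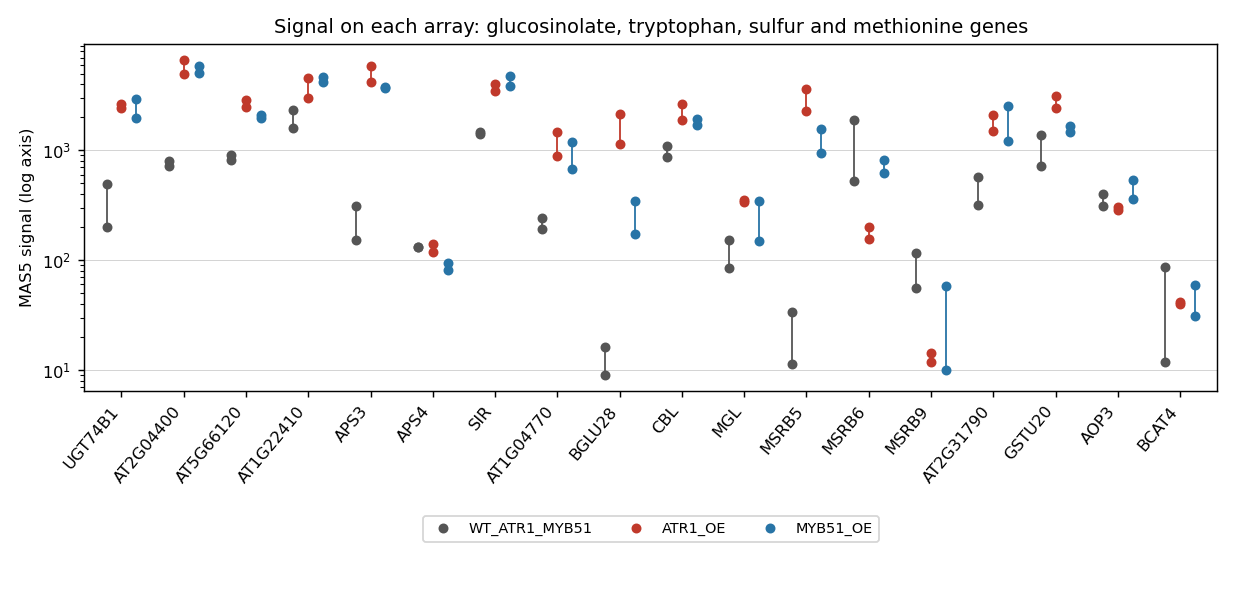
MAS5 signal on a log axis for 18 genes of glucosinolate, tryptophan, sulfur and methionine metabolism, with a point for each of 2 arrays of wild type (grey), ATR1_OE (red) and MYB51_OE (blue) and a line joining the arrays of a group. ATR1_OE and MYB51_OE lie together above wild type for AT2G04400, UGT74B1, APS3 and SIR, while ATR1_OE alone reaches above 1000 for BGLU28, where MYB51_OE gave 172 and 343.

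Aliphatic glucosinolate genes rose in part. Of 25 listed genes 5 could be tested, 3 rose and none fell, with a median log2 change of 1.05. AT2G31790, listed for a glucosyltransferase of the same reaction as UGT74B1, gave 2105 and 1512 in ATR1_OE against 568 and 319 and rose 4.19-fold (limma adjusted p = 0.00109). It was called without any 1 array, with adjusted p of at most 0.024. GSTU20, a glutathione transferase, gave 3142 and 2414 against 1378 and 715 (log2 1.47 ± 0.41, SE; limma adjusted p = 0.0259). AT2G25450, listed for a side chain hydroxylase, gave 37.4 and 33.4 against 5.55 and 1.32, both at the floor, a rise of at least 2.07-fold (limma adjusted p = 0.0411). The dioxygenase AOP3, with 302 and 286 against 403 and 308, was not called (log2 -0.26), nor was BCAT4, the aminotransferase that starts side chain elongation, with 41.4 and 40.2 between the wild type values of 86.1 and 11.7, of which 1 lay at the floor. The wild types of the other experiments stood higher for both genes. BCAT4 had 1563, 2176 and 791 in the wild type of the MYB29 and MYB76 experiment and 1431 and 3386 in that of the artificial microRNA experiment, and AOP3 had 943, 1224 and 589 in the former and 1266 and 2881 in the latter. Against these 5 arrays BCAT4 (log2 -5.36; limma adjusted p = 4.92e-05) and AOP3 (log2 -2.03; limma adjusted p = 0.00516) were called lower in ATR1_OE, so that the list held 2 rises and 2 falls, and with all 7 wild type arrays it held 2 rises. GSTU20 lost its call without either ATR1_OE array or wild type replicate 2 (adjusted p of at most 0.227), and AT2G25450 without any 1 of the 4 arrays (at most 0.198).

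Transport and breakdown genes were lower where they were called. Of 4 tested genes 2 fell and none rose, with a median log2 change of -0.98. GTR2, a transporter that loads glucosinolates into the phloem, gave 63.4 and 125 in ATR1_OE against 353 and 292 and fell 3.61-fold (log2 -1.85 ± 0.35, SE; limma adjusted p = 0.00309), and was called without any 1 array (at most 0.0427). PYK10, the beta-glucosidase of ER bodies, which are storage compartments of the endoplasmic reticulum, gave 113 and 175 against 324 and 457 (log2 -1.45 ± 0.43, SE; limma adjusted p = 0.032). Among 6 tested genes of ER bodies and jacalin lectins, NAI2, which is needed to form ER bodies, fell from 81.0 and 74.4 to 29.9 and 33.1 (limma adjusted p = 0.00492). With only the 6 arrays of the experiment fitted NAI2 was not called (limma adjusted p = 0.075). The lectin gene JAL33 fell from 139 and 140 to 70.4 and 76.0 (limma adjusted p = 0.0453), while JAL23 gave 65.6 and 57.7 against 14.5 and 10.0, both at the floor, and rose at least 3.61-fold (limma adjusted p = 0.0125). PYK10 and JAL33 lost their calls without any 1 of the 4 arrays (adjusted p of at most 0.195 and 0.162), and JAL23 without any but wild type replicate 1 (at most 0.0888). PYK10 is also a root marker. Of 16 root markers 6 are named on the array, by 7 probe sets, whose summed signal was 308 and 342 in ATR1_OE against 903 and 892 in wild type. This sum is not separate from the fall of PYK10. PYK10 itself and 2 probe sets of the locus AT1G31690 make up most of it in wild type. AT1G31690 fell with both (log2 -3.03 and -1.93). EXPA7 (log2 -1.25, limma adjusted p = 0.234) and EXPA18 (log2 0.26) were not called. PER57 lay at the floor on all 4 arrays. PER45, with 43.9 and 34.1 in ATR1_OE against 38.9 and 2.41 in wild type, was not tested. Whether root tissue had a part in the falls of ER body genes was not tested.

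None of the 3 tested genes of auxin synthesis, the flavin monooxygenases YUC2, YUC4 and YUC6, was called, with log2 changes from -1.27 to 0.07. YUC4 lay at the floor on both ATR1_OE arrays and 1 wild type array. It was called lower against all 7 wild type arrays of the series (log2 -1.93; limma adjusted p = 0.025), against the 5 of the other experiments (log2 -2.19; limma adjusted p = 0.00422) and without wild type replicate 2 (log2 -2.32; limma adjusted p = 0.0093). Of 4 tested GH3 genes, whose enzymes join auxin to amino acids, 3 rose, with a median log2 change of 2.3. GH3.3 gave 173 and 62.2 in ATR1_OE against 7.45 and 1.89, both at the floor, a rise of at least 6.08-fold (limma adjusted p = 0.00209). WES1, also called GH3.5, gave 299 and 335 against 67.3 and 43.6 (log2 2.55 ± 0.40, SE; limma adjusted p = 0.00091), and GH3.17 gave 118 and 104 against 5.56, at the floor, and 37.1 (log2 2.05; limma adjusted p = 0.0429). GH3.9, with 100 and 120 against 88.9 and 81.1, was not called (log2 0.37). HAT2, an auxin-induced homeodomain gene, rose from 186 and 135 to 587 and 492 (limma adjusted p = 0.00433), and IAA29, an Aux/IAA repressor of auxin signalling, from 142 and 77.9 to 247 and 340 (limma adjusted p = 0.0296). HAT2 lost its call without wild type replicate 2 (adjusted p = 0.0553), IAA29 without any array but wild type replicate 1 (at most 0.231) and GH3.17 without any 1 of the 4 (at most 0.233).

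The rises of the GH3 genes depended on which wild type served as the control. GH3.3 had signals of 202, 109 and 66.5 in the wild type of the MYB29 and MYB76 experiment and of 401 and 389 in that of the artificial microRNA experiment, all above both wild type arrays used here. WES1 had 578, 242 and 427 in the former and 718 and 581 in the latter, of which 4 of 5 lay above both ATR1_OE arrays. With all 7 wild type arrays of the series as the control none of the 4 GH3 genes was called. With the wild types of the other experiments alone (5 arrays), the log2 change was -0.85 for GH3.3, -0.59 for WES1 and -0.79 for GH3.17, none called. HAT2 (log2 1.43) and IAA29 (log2 2.42) were called against those 5 arrays too.

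Against the 5 other wild type arrays AT2G04400 changed by 3.26 on the log2 scale, APS3 by 4.18, BGLU28 by 5.84, MSRB5 by 6.33, UGT74B1 by 1.96 and SIR by 1.18, all called. Of the 98 named genes that were called against their own wild type 33 lost the call against these 5 arrays and 28 against all 7. In the pathways above, besides the GH3 genes, these were CBL (log2 0.71, limma adjusted p = 0.103), GSTU20 (log2 0.05, limma adjusted p = 0.949) and MSRB6 (log2 -0.97, limma adjusted p = 0.47) with the 5 arrays, and GSTU20 and MSRB6 also with all 7 (limma adjusted p = 0.589 and 0.301). CBL, at 0.85, was not called with all 7 either (limma adjusted p = 0.0587). The fall of PYK10 was deeper against these arrays, at -3.32, and that of GTR2 was -1.88. In count, 2583 probe sets were called, 864 higher and 1719 lower.

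**Figure D3:**
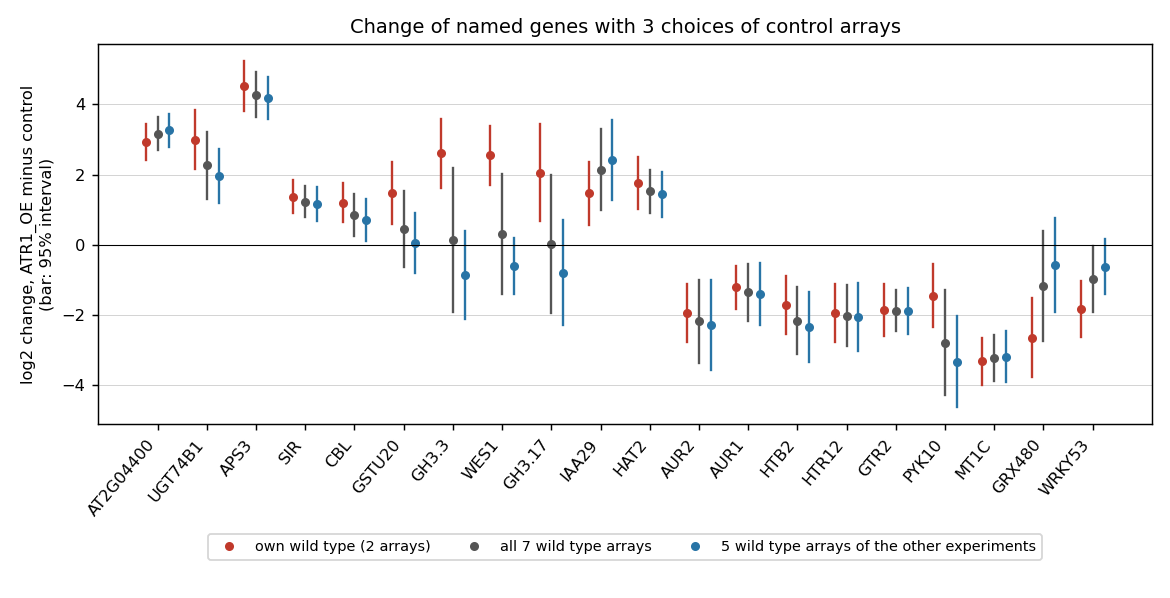
Log2 change in ATR1_OE with its 95% interval for 20 named genes against its own 2 wild type arrays (red), all 7 wild type arrays (grey) and the 5 of the other experiments (blue). The GH3 genes GH3.3, WES1 and GH3.17 drop from above 2 to below 0 on exchange of the control, while AT2G04400, APS3 and MT1C stay near their values.

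Outside these pathways the 12 largest rises by the naming rule lay at a log2 change of 3.26 or more, and only 4 of those genes carry a symbol. Besides MSRB5, BGLU28 and APS3 this was FDH, formate dehydrogenase, which had 2412 and 3425 in ATR1_OE against 285 and 316 in wild type and rose 9.57-fold (limma adjusted p = 0.000394). The other 8 are given by locus. AT3G28270 rose by 4.63, AT5G62280 by 4.42, AT1G23120 by 4.37, AT3G23570 by 4.32, AT4G24130 by 3.96, AT3G48410 by 3.80, AT1G13990 by 3.52 and AT4G01870 by 3.27 on the log2 scale. AT3G23570 stood at 5116 and 4924 against 385 and 164, and AT1G13990 at 752 and 757 against 73.8 and 58.7, with a limma adjusted p = 7.32e-07. AT1G12030 gave 2347 and 773 against 4.41 and 2.53, both at the floor, and rose at least 79.0-fold (limma adjusted p = 0.000101). All of these were called without any 1 array.

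Of the 12 largest falls only 1 gene carries a symbol, the metallothionein MT1C, a small metal-binding protein. It gave 270 and 230 in ATR1_OE against 2511 and 2464 in wild type, so replicates agreed within each group, and it fell 9.97-fold (log2 -3.32 ± 0.32, SE; limma adjusted p = 1.55e-05). AT5G55450 had the deepest fall, -4.45 ± 1.06 (SE), with 151 and 3.95 against 486 and 1865. Its replicates differed by more than 3-fold in each group, and it lost its call without either replicate 2 (adjusted p of at most 0.156). AT2G43620 behaved alike, with 32.3 and 5.0 against 125 and 739 (log2 -3.92; at most 0.0831 without either replicate 2). AT1G48100 fell from 984 and 2180 to 169 and 93.2 (log2 -3.54; limma adjusted p = 4.8e-05) and AT3G16670 from 2847 and 3246 to 342 and 291 (log2 -3.27). The other 7, AT4G27657, AT1G31690, AT3G21300, AT3G05600, AT3G52170, AT3G21540 and AT1G47400, fell by 2.68 to 3.10 on the log2 scale. With only the 6 arrays of the experiment fitted AT5G55450, the deepest fall, was not called (limma adjusted p = 0.09996). AT1G47400 lost its call without any 1 of the 4 arrays (adjusted p of at most 0.0834), and AT3G52170 with only the 6 arrays of the experiment fitted (adjusted p = 0.0552). Against the 5 other wild type arrays AT1G47400 (log2 -2.46; limma adjusted p = 0.0655), AT4G27657 (log2 -1.35; limma adjusted p = 0.0811) and AT1G31690 (log2 -1.35; limma adjusted p = 0.204) were not called.

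Genes of dividing cells were lower where they were called. Of 13 tested genes of cell division 5 fell and none rose, with a median log2 change of -0.38, and of 6 histone genes 3 fell and none rose, with a median of -1.26, where 9.62% of all probe sets tested were called lower. AUR2, an Aurora kinase of mitosis, gave 57.8 and 61.6 in ATR1_OE against 179 and 289 (log2 -1.93 ± 0.39, SE; limma adjusted p = 0.00426). AUR1, with 150 and 184 against 319 and 467, fell by 1.21, and AUR3, with 49.0 and 50.9 against 109 and 94.4, fell by 1.02. AUR3 lost its call without any 1 array (adjusted p of at most 0.136) and with quantile normalization (adjusted p = 0.076). PRL, a subunit of the helicase that opens DNA for replication, fell by 1.29, and the beta-tubulin gene TUB7, named after its values were seen, by 1.01. PRL was not called with quantile normalization (limma adjusted p = 0.0619) or with only the 6 arrays of the experiment fitted (limma adjusted p = 0.103). HTR12, the histone of centromeres, gave 11.5, at the floor, and 32.1 against 82.4 and 77.3 (log2 -1.93; limma adjusted p = 0.00451). HTB2 fell from 201 and 233 to 69.0 and 63.6 and HTB1, likewise a histone H2B gene, from 461 and 565 to 179 and 168. Without wild type replicate 2 none of the 13 cell division genes and 1 of the 6 histone genes was called. Without ATR1_OE replicate 1 it was 1 of each, without ATR1_OE replicate 2 it was 2 and 1, and without wild type replicate 1 it was 3 of each. Falls among the cell division genes numbered 3 with quantile normalization and 2 with only the 6 arrays of the experiment fitted. Against the wild types of the other experiments (5 arrays) 7 of 13 and 5 of 6 were called, all lower.

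Other families held calls as well, to be read against the 5.54% of all probe sets called higher and the 9.62% called lower. Of 16 genes for RNA processing in chloroplasts and mitochondria 6 fell and 1 rose, with a median log2 change of -0.58. Among them were OTP85 (log2 -1.67), OTP81 (log2 -1.64) and CRR21 (log2 -1.08), which act in RNA editing, and OTP43 (log2 -1.32), which acts in splicing. This list was written after the annotation had been seen, and its falls numbered 1 without ATR1_OE replicate 1 or wild type replicate 2 and 2 without ATR1_OE replicate 2. They numbered 4 against the 5 other wild type arrays, where OTP85 (log2 -0.99; limma adjusted p = 0.104) and OTP43 (log2 -0.89; limma adjusted p = 0.089) were not called, 3 against all 7 and 1 with only the 6 arrays of the experiment fitted. Of 12 expansins, which loosen cell walls, EXPA8 rose from 1563 and 385 to 4665 and 5143 (log2 2.66; limma adjusted p = 0.00352), while EXPA15 (log2 -1.27) and EXPB3 (log2 -0.97) fell. EXPA8 and EXPA15 lost their calls without wild type replicate 2 (adjusted p = 0.0536 and 0.0627), EXPA15 also against the 5 other wild type arrays (adjusted p = 0.137), and EXPB3 without ATR1_OE replicate 2 or wild type replicate 1 (at most 0.148). Of 8 aldehyde dehydrogenase genes 3 rose and none fell: ALDH11A3 gave 7280 and 6401 against 3264 and 3168 (limma adjusted p = 0.00096), ALDH10A8 rose by 1.1 and ALDH7B4 by 1.04 on the log2 scale. ALDH10A8 lost its call without wild type replicate 1 (adjusted p = 0.0692) and ALDH7B4 without either replicate 2 (at most 0.121). Against the 5 other wild type arrays ALDH10A8 (log2 0.29; limma adjusted p = 0.365) and ALDH7B4 (log2 0.76; limma adjusted p = 0.0569) were not called, which left 1 of the 8, and against all 7 ALDH10A8 was not (log2 0.52; limma adjusted p = 0.213). Of 11 autophagy genes 2 rose, both coding for ATG8 proteins of the autophagosome membrane. ATG8E gave 468 and 991 against 257 and 195, and ATG8H 131 and 156 against 52.6 and 65.1, but ATG8E lost its call without either replicate 2 (at most 0.201) and against the 5 other wild type arrays (adjusted p = 0.0884) and ATG8H without any 1 array (at most 0.191). Among 15 serine carboxypeptidase-like genes scpl50 (log2 -2.08) and scpl42 (log2 -1.15) fell and scpl48 (log2 1.49) and SCPL27 (log2 1.3) rose. SCPL27 lost its call without any 1 array (adjusted p of at most 0.114) and against the 5 other wild type arrays (adjusted p = 0.114), and scpl48 without any but ATR1_OE replicate 2 (at most 0.142).

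Defence regulators that were called were lower. Of 3 tested salicylate and pathogen response genes 2 fell. Falls in this list were also seen in the MYB51 line described below, which shares the wild type arrays. GRX480, a glutaredoxin induced by salicylate, gave 32.9 and 18.8 in ATR1_OE against 144 and 167 (log2 -2.64; limma adjusted p = 0.00433), and the transcription factor gene WRKY53 gave 32.0 and 26.3 against 85.2 and 124 (log2 -1.83; limma adjusted p = 0.00497). Against the 5 other wild type arrays neither was called, at -0.58 (limma adjusted p = 0.566) and -0.63 (limma adjusted p = 0.257). MYC4, a partner of MYB factors in glucosinolate regulation, gave 35.0 and 40.5 against 93.9 and 84.1 (log2 -1.24; limma adjusted p = 0.0421) and lost its call without any 1 array (at most 0.164). GRX480 lost its call without ATR1_OE replicate 2 (adjusted p = 0.0504) and WRKY53 without wild type replicate 2 (adjusted p = 0.0653).

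Several families gave no call in either direction, where 15.2% of all probe sets tested were called. These were 11 genes of SWEET and other sugar transporters (median log2 change -0.26), 6 cold-response genes (0.43), 6 nuclear genes of photosystems and light harvesting (0.37) and 68 plastid-encoded probe sets (-0.33). Replicates of the cold-response genes lay far apart, with a median log2 signal of 10.4 and 7.77 in ATR1_OE and of 9.46 and 6.48 in wild type. Their log2 changes ran from -0.58 to 1.63, so the lack of a call does not show that they were unchanged. Of 28 UDP-glycosyltransferase genes only UGT74B1 and UGT85A7 rose and none fell (median -0.09), near the 5.54% called higher among all probe sets, UGT85A7 at least 4.41-fold over wild type arrays at the floor, and of 11 cytochromes P450 only CYP71B29 rose (median -0.04). UGT85A7 lost its call without any 1 array (adjusted p of at most 0.12) and CYP71B29 without any but ATR1_OE replicate 1 (at most 0.236), and neither was called against the 5 other wild type arrays (limma adjusted p = 0.149 and 0.414). The plastid-encoded probe sets had a median log2 signal of 5.42 and 5.49 in ATR1_OE and of 6.4 and 5.53 in wild type.

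**Figure D4:**
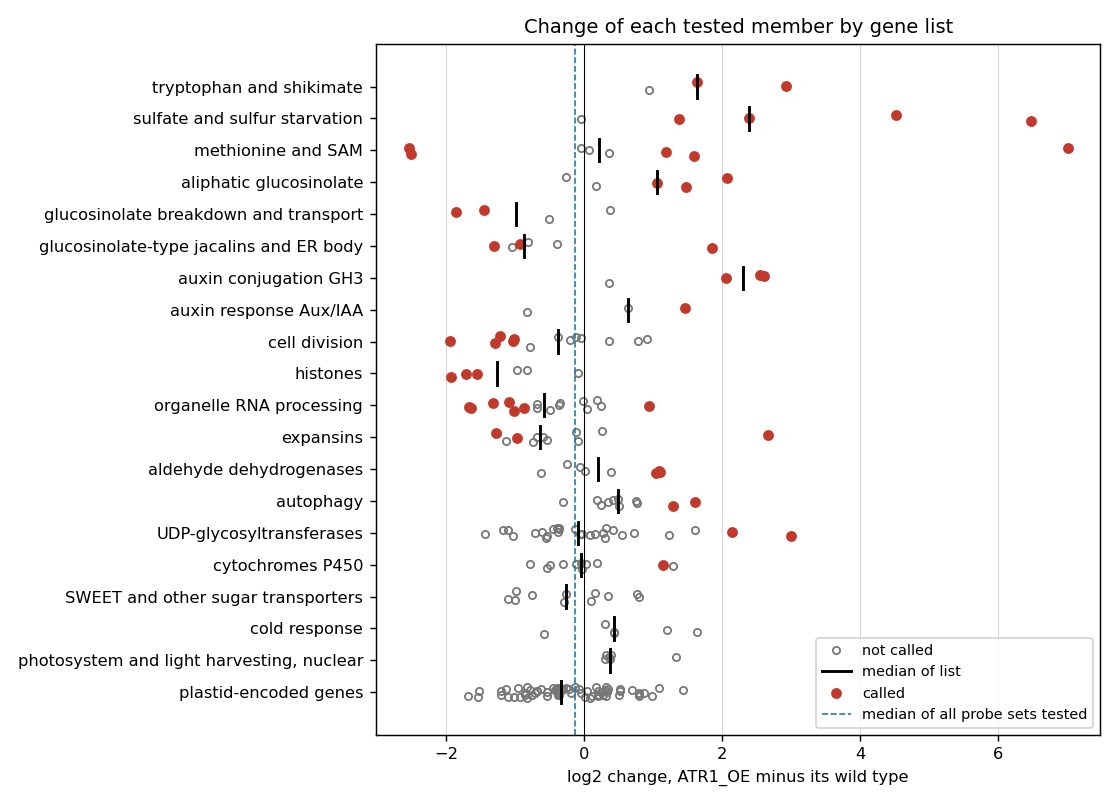
Log2 change in ATR1_OE against its wild type for each tested member of 20 gene lists, filled where called, with the median of each list as a black bar and that of all probe sets tested, -0.13, as a dashed line. Medians of the sulfate, tryptophan and GH3 lists lie above 1.5, that of the histones lies at -1.26, and the 68 plastid-encoded probe sets hold no filled point.

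MYB51 is another MYB factor known to regulate indole glucosinolates, and the seedlings overexpressing it (MYB51_OE, 2 arrays) belong to the same experiment and share the wild type arrays with ATR1_OE. Against that wild type limma called 1.38% of probe sets in MYB51_OE, 0.889% higher and 0.486% lower. Since shared control arrays tie both sets of changes together, the lines were compared directly. limma called 417 probe sets (2.67%), 150 higher (0.96%) and 267 lower (1.71%) in ATR1_OE. The same ATR1_OE arrays enter the contrast with wild type and that with MYB51_OE, which by itself favours the same direction in both. The overlap of calls is thus no independent result. Of the 866 probe sets that had risen over wild type 129, or 14.9%, were also higher than in MYB51_OE. Of the 1503 that had fallen 242 were lower and 2 higher. The count was 64 without MYB51_OE replicate 1, 85 without ATR1_OE replicate 1, 141 without ATR1_OE replicate 2 and 713 without MYB51_OE replicate 2.

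No difference was called between the lines for tryptophan, core and most sulfur genes. AT2G04400 had 5044 and 5825 in MYB51_OE, so the arrays of the lines overlapped, and the log2 difference of 0.09 had a 95% interval from -0.42 to 0.60. UGT74B1, with 1961 and 2922, differed by 0.08 (-0.76 to 0.92), and AT2G31790, with 1225 and 2533, by 0.02 (-0.69 to 0.73). APS3, with 3789 and 3697, differed by 0.40 (-0.31 to 1.12) and SIR, with 3902 and 4729, by -0.21 (-0.67 to 0.26). These intervals leave room for differences of about 1.5-fold for AT2G04400 and more for the others, so the lines are not shown to be alike. MSRB5, at 948 and 1571 in MYB51_OE, was not called either (log2 difference 1.25, limma adjusted p = 0.22). Some falls were present in both lines too. MT1C was lower in MYB51_OE than in the same wild type (log2 -2.38, limma adjusted p = 0.000566). It did not differ by call between the lines (log2 difference -0.93, limma adjusted p = 0.116). The 3 salicylate and pathogen response genes changed in MYB51_OE by -2.20 to -1.17 on the log2 scale, with 1 called. None of them differed by call between the lines.

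BGLU28 was the exception among the sulfur genes. It had 172 and 343 in MYB51_OE against 2129 and 1144 in ATR1_OE, a log2 difference of 2.68 (limma adjusted p = 0.000926). Auxin genes were higher in ATR1_OE than in MYB51_OE too: GH3.3 (18.2 and 26.8 in MYB51_OE) by 2.23, WES1 (59.1 and 93.1) by 2.09 and HAT2 (144 and 251) by 1.5 on the log2 scale, with limma adjusted p = 0.0208, 0.0137 and 0.0352. These differences do not involve the wild type arrays. The auxin genes were named in this contrast after their values were seen. With only the 6 arrays of the experiment fitted, 4 probe sets were called higher in ATR1_OE, in place of 150. Most of the genes named as higher in this paragraph thus cannot have kept their call in that fit, and which of them did is not given here. AT2G25450, at the floor on both MYB51_OE arrays, was higher by at least 1.4 (limma adjusted p = 0.0341). FDH, with 306 and 1208 in MYB51_OE, was higher in ATR1_OE by 2.24 (limma adjusted p = 0.0187). AT2G25450 and FDH were likewise named in this contrast after their values were seen. The largest differences upward among named genes were those of AT1G12030 (4.98), AT4G01870 (3.34), AT1G23120 (2.87), AT4G37180 (2.85) and AT5G62280 (2.82).

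Among the genes lower in ATR1_OE than in MYB51_OE were some of cell division. AUR1, with 419 and 325 in MYB51_OE, differed by -1.15 (limma adjusted p = 0.045), PRL, with 691 and 265, by -1.84 (limma adjusted p = 0.0256) and HTR12, with 73.4 and 63.5, by -1.70 (limma adjusted p = 0.0324). Of 13 cell division genes 3 were lower and none was higher, and of 6 histone genes 1 was lower. Among all probe sets tested in this contrast 1.71% were called lower and 0.96% higher. ASPGB1, an asparaginase, gave 51.3 and 48.6 in ATR1_OE against 431 and 200 (log2 difference -2.56; limma adjusted p = 0.0137), and scpl50 differed by -2.09 (limma adjusted p = 0.00392). AT2G33850 (-3.18), AT3G05600 (-3.14), AT4G29030 (-2.70), AT3G21540 (-2.41) and AT3G02640 (-2.32) were the other named genes with the largest differences downward. The cell division genes and scpl50 were named in this contrast after their values were seen. With only the 6 arrays of the experiment fitted, 6 probe sets were called lower in ATR1_OE, in place of 267. Not all genes named as lower in this paragraph can thus have kept their call in that fit.

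**Figure D5:**
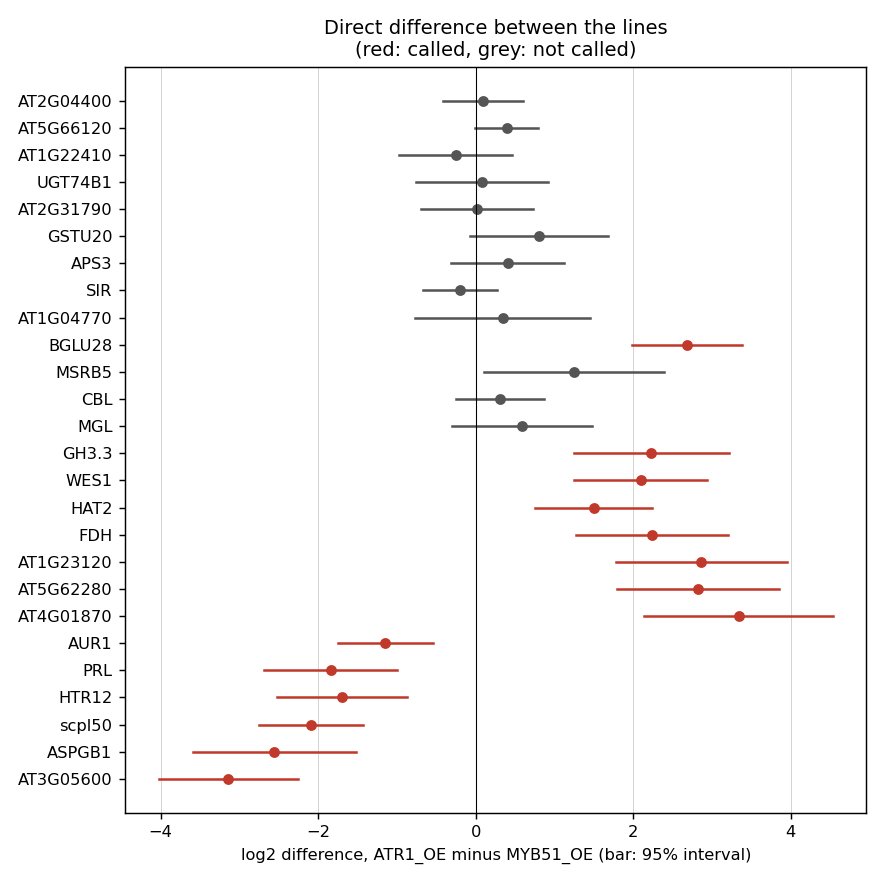
Log2 difference between ATR1_OE and MYB51_OE, with its 95% interval, for 26 named genes, in red where called. Intervals of the tryptophan, core and sulfate genes span 0 except for BGLU28 at 2.68, while GH3.3, WES1 and HAT2 lie to the right of 0 and AUR1, PRL and HTR12 to the left.

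A further line carried an artificial microRNA, a designed small RNA driven by the 35S promoter. The labels name it together with ATR1 and the word like (ATR1_like_miR, 2 arrays), and it has a wild type of its own (2 arrays). Whether ATR1 was lowered in this line was not analysed here. Against its own wild type limma called 2.02% of probe sets in ATR1_like_miR, 0.87% higher and 1.15% lower. The difference between the change in ATR1_OE and the change in ATR1_like_miR was tested as an interaction, and 873 probe sets (5.59%) were called, 425 with the higher change in ATR1_OE (2.72%) and 448 with the lower (2.87%). No gene of the tryptophan, sulfate or aliphatic lists was called in ATR1_like_miR itself. AT2G04400 had 626 and 492 there against 600 and 794 in its wild type, and the changes differed by 3.23 (limma adjusted p = 5.98e-05). UGT74B1 had 466 and 562 against 807 and 1167, a log2 change of -0.92 that was not called (limma adjusted p = 0.257), and the changes differed by 3.92 (limma adjusted p = 0.000921). APS3 had 207 and 215 against 255 and 490, a difference of changes of 5.26. BGLU28 (7.28), MSRB5 (7.46) and CBL (1.84) also differed, CBL with a limma adjusted p = 0.00958. The count of 873 became 715 without ATR1_OE replicate 1 and lay between 360 (without ATR1_OE replicate 2) and 565 (without wild type replicate 1) when any other of the 8 arrays was left out.

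The deepest negative differences from ATR1_like_miR were plastid-encoded and lay outside ATR1_OE. For clpP, a plastid protease gene, ATR1_OE gave 10.7 and 26.6 and its wild type 40.1 and 13.6, while ATR1_like_miR gave 3989 and 5600 and its wild type 7.88 and 16.9, a difference of changes of -8.52. Of 68 plastid-encoded probe sets 51 differed in this direction, none was called in ATR1_OE against wild type, and 54 were higher in ATR1_like_miR than in its own wild type. The median log2 plastid-encoded signal was 9.90 and 10.9 in ATR1_like_miR against 4.64 and 5.48 in its wild type, and the part of this signal in the other differences was not tested.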

How the data were processed

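Transcripts were measured on ATH1 arrays, 1 for each sample. What the authors deposited are MAS5 intensities on a linear scale, per the submitters' processing notes, which give no version. The values show that the authors scaled each array to a common trimmed mean, so only relative levels compare. Log2 of the deposited intensities was taken after raising values to the array's 20th percentile (the floor). Probe sets reaching the 40th percentile on at least 2 arrays were tested with limma 3.58.1 (R 4.3.3; lmFit, eBayes with trend) in 1 fit of 9 group means to 19 arrays (10 residual degrees of freedom), two-sided, with Benjamini-Hochberg adjustment over 15630 probe sets. The 64 control probe sets were left out. On simulated data with 100 probe sets changed at each size, this fit recovered 19 at a log2 change of 1 and 87 at 2, with 4 false calls. The simulation changed a far smaller share of probe sets than the 15.2% called here, so these numbers need not carry over to the real contrast. "At least" marks a fold against a group at the floor on every array. Where only 1 array of a group lay there, as for MSRB5, BGLU28, GH3.17, BCAT4, AT5G62280, MSRB9, AT5G55450, AT2G43620, AT1G31690, HTR12, OTP81 and AT2G33850, the change depends on the floor in part.

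Names came from the array annotation and RefSeq genes of TAIR10.1: 8578 tested probe sets had 1 gene, 311 several and 6741 none listed. Of 227 loci in lists given by locus 42 could be tested. Roles of AT2G04400, AT5G66120, AT1G22410, AT1G04770, AT2G31790 and AT2G25450 come from the gene lists, not from that annotation. Members and lists were chosen with earlier results of these data known, and the lists for organelle RNA processing, aldehyde dehydrogenases, autophagy, carboxypeptidases and plastid-encoded genes after the annotation was seen. Named were the tested members of the glucosinolate synthesis, tryptophan, sulfate, methionine, auxin synthesis and GH3 lists, the 12 largest rises and 12 largest falls (called, 1 gene, no overlap between arrays, not wholly at the floor in either group), up to 4 called members of each other list, and up to 6 genes each way in both further contrasts. RCA, the root markers, TUB7 and, in the direct contrast, the auxin and cell division genes, AT2G25450, FDH and scpl50 were added after their values were seen. Alternatives were the floor, normalization, filter, variance model, arrays fitted, control arrays, replicate block and each array left out. The labels do not say whether equal replicate numbers mark arrays handled together, and the main fit does not pair them. Differences between replicates 1 and 2 correlated with r = 0.158 between ATR1_OE and wild type. The correlation was -0.00371 between ATR1_OE and MYB51_OE and -0.01 between wild type and MYB51_OE. With the replicate number as a block 2345 probe sets were called against wild type, in place of 2369.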

Additional observations from a re-analysis of the deposited data

Results flagged for a closer look

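These results were singled out because the change in ATR1_OE differed from that in another line in a test of the difference itself. Against MYB51_OE, limma called 417 probe sets. Named genes higher in ATR1_OE were AT1G12030 (log2 difference 4.98), AT4G01870 (3.34), AT1G23120 (2.87), AT4G37180 (2.85), AT5G62280 (2.82) and BGLU28 (2.68). AT4G37180, with 373 and 130 in ATR1_OE, 194 and 161 in wild type and 33.3 and 27.9 in MYB51_OE, did not differ by call between ATR1_OE and wild type (limma adjusted p = 0.78). Named genes lower in ATR1_OE were AT2G33850 (-3.18), AT3G05600 (-3.14), AT4G29030 (-2.70), ASPGB1 (-2.56), AT3G21540 (-2.41) and AT3G02640 (-2.32).

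Against the change in ATR1_like_miR, 873 probe sets were called. The change in ATR1_OE was the higher for MSRB5 by 7.46, BGLU28 by 7.28, APS3 by 5.26, AT3G23570 by 4.96, AT5G62280 by 4.81 and AT1G23120 by 4.66 on the log2 scale. It was the lower for 6 plastid-encoded genes, with differences of -8.52 for clpP, -7.90 for matK, -7.69 for ndhI, -7.54 for rpl22, -7.50 for petA and -7.10 for ndhD, each with a higher signal on both ATR1_like_miR arrays than on any array of ATR1_OE or of both wild types. Groups of 2 arrays were too small to test for an array that stands apart.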

How the results depend on the processing

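With 2 arrays per group, precision is limited by their number, and signals near the floor carry no order. Leaving out 1 array at a time, which leaves a lone array assumed to vary like the other groups, gave 791 to 1385 calls for ATR1_OE against wild type, 64 to 713 against MYB51_OE and 360 to 715 against the change in ATR1_like_miR. With only the 6 arrays of the experiment fitted, the counts were 1108 and, against MYB51_OE, 10 (4 higher, 6 lower), where 261 were called without a filter on low values. Of the 98 named genes called against wild type 35 lost the call in the fit of 6 arrays. With the wild types of the other experiments as the control (5 arrays), chosen after seeing the data, GH3.3 (-0.85), WES1 (-0.59) and GH3.17 (-0.79) turned negative. The cause of these shifts was not tested. With the replicate number as a block the 3 counts were 2345, 398 and 855. In every other alternative these counts stayed within 1.5 times the values reported. Of the 116 named genes 98 were called against wild type, 29 of them in every alternative, and 61 lost their call without some array. Among these 98 only the 3 GH3 genes above turned in direction. BCAT4, not called, turned to -5.36 and was called with the 5 other wild type arrays, and of the 18 genes not called 8 in all turned in some alternative.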
